A study of Mus musculus with 12 samples.

Results

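The genes described here are 10 mouse genes of the p53 response, Trp53 itself and 9 genes that it is known to induce. They were followed across cells whose labels differ in ERRb. Esrrb encodes ERRb, an orphan nuclear receptor of the pluripotency network of mouse embryonic stem (ES) cells. Each gene was read from its probe set on a whole-transcript microarray, taking the probe set annotated to that symbol alone with the highest mean. Of the 10 genes, 8 had such a probe set (Mdm2, Ccng1, Cdkn1a, Btg2, Polk, Perp, Trp53inp1 and Zmat3), out of 22180 genes with one, and each of the 8 had 1 such probe set. Trp53 and Bax had none and were not analysed here.

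All cells were ES cell line K3. The group KO/ERRb-wt was made from ERRb knockout cells given a lentivirus expressing wild-type ERRb, the group KO/mock was the knockout with a mock treatment, and the group WT/mock was wild type with a mock treatment. Each group had 4 arrays, 2 replicates of each of 2 clones: 12-1 and 12-3 for KO/ERRb-wt, 8-3 and 8-4 for KO/mock, and 5-2 and 5-5 for WT/mock. All groups were grown with LIF and inhibitors of GSK3 and MEK, then kept for 3 days with the inhibitors and doxycycline. The labels do not say what the mock treatment was or which part of Esrrb was removed. A difference between groups therefore rests on 2 clones a side. In bulk RNA, fewer expressing cells and less RNA per cell cannot be told apart.

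p53 is a transcription factor that is kept scarce in unstressed cells by the ubiquitin ligase Mdm2 and accumulates after DNA damage and other stresses. It binds DNA as a tetramer on paired copies of a decamer half-site and induces genes that halt the cell cycle, repair DNA, promote apoptosis or, like Mdm2, limit p53 itself. Mouse ES cells are known for abundant p53 and for a G1 checkpoint that is weak compared with that of differentiated cells.

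The p53 half-site can be shown directly in several of these promoters. Of the 10 genes, 7 had an entry in the RefSeq promoter table (GRCm38.p6), and the 250 bases before each start were searched on both strands for the p53 half-site decamer and for the extended ERR element TCAAGGTCA, the sequence bound by ERR receptors. The half-site was found in 6 of the 7 genes (Trp53, Bax, Mdm2, Ccng1, Cdkn1a and Polk, not Btg2), and in 8.2% of the 27025 genes of the table. The ERR element was found in 1 of the 7, Polk, and in 0.422% of genes. The motifs do not overlap in these promoters. A match describes the letters only. Perp, Trp53inp1 and Zmat3 had no entry.

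The upstream Cdkn1a promoter (chr17:29090729-29090978, plus strand) is shown because it held 2 half-sites, at 73 to 64 and at 51 to 42 bases before the start. The Polk promoter (chr13:96519188-96519437, minus strand), which belongs to an internal start of the gene, is shown because it was the one with both motifs. In it the half-site lies 231 to 222 bases before the start and the ERR element, on the opposite strand, 198 to 190 bases before it. The second annotated promoter of each of these genes held neither motif. Capitals mark motif matches, and both sequences run 5′ to 3′ on the gene's strand.
Cdkn1a: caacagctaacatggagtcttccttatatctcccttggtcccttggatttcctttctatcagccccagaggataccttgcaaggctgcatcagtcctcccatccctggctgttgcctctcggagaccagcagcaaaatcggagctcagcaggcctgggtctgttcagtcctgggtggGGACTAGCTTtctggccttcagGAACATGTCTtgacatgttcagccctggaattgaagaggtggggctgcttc
Polk: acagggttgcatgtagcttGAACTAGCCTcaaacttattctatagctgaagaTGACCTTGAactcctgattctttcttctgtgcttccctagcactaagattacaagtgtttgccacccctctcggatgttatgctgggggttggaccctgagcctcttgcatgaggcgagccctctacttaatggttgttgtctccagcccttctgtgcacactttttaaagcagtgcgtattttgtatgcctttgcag

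For Mdm2 and Ccng1, feedback genes of the pathway, the 60 bases around the half-site are shown. Each promoter held 1 half-site and no pair in the bases searched. Whether p53 acts through it was not tested. The Mdm2 window lies at chr10:117710910-117710969 and the Ccng1 window at chr11:40755437-40755496, both on the minus strand, with the half-site in capitals 186 to 177 and 185 to 176 bases before the start.
Mdm2: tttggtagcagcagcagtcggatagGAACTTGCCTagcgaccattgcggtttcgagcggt
Ccng1: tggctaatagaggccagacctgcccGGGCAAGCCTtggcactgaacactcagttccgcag

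The arrays carried 41345 probe sets, and the array medians of the log2 values lay between 5.00 and 5.07. The Esrrb probe set did not follow the labels. It read 6.99, 6.76, 6.50 and 6.68 on the arrays labelled KO/ERRb-wt, 7.48, 8.00, 7.74 and 7.41 on the arrays labelled KO/mock, and 7.38, 7.38, 7.39 and 7.38 on the arrays labelled WT/mock. It was thus lowest on the arrays labelled KO/ERRb-wt, by -0.93 ± 0.13 against KO/mock and -0.65 ± 0.13 against WT/mock (limma adjusted p = 0.00436 and 0.00557). With clone averages the call against KO/mock was lost (limma adjusted p = 0.137). Probes outside the removed part would not check the knockout label, and probes outside the viral insert would not check the label of re-expression. Where the probes lie was not tested. Neither the reason for the low KO/ERRb-wt values nor the assignment of the labels to the arrays was tested. Directions below are those of the labelled groups. Of 8 ES cell markers, 7 had means above log2 5 in every group, and the summed log2 level of the 8 was 78.65 to 79.0 on KO/ERRb-wt, 79.4 to 79.77 on KO/mock and 79.82 to 80.43 on WT/mock arrays. Of these 8, Klf4 was called lower in KO/mock than in WT/mock cells, and Klf4, Nanog and Utf1 were called lower in KO/ERRb-wt than in KO/mock cells. Feeder fibroblast markers (7 genes) summed to 32.27 to 33.29 on KO/ERRb-wt, 31.59 to 32.15 on KO/mock and 31.4 to 32.55 on WT/mock arrays, with no gene mean above 6.02. Primitive endoderm markers (6 genes, no mean above 7.00) summed to 31.65 to 32.06 on KO/ERRb-wt, 31.46 to 32.53 on KO/mock and 32.25 to 32.76 on WT/mock arrays. Neuroectoderm markers (4 genes, no mean above 7.91) summed to 24.28 to 24.99 on KO/ERRb-wt, 23.78 to 24.48 on KO/mock and 23.80 to 24.97 on WT/mock arrays. Single genes of these lists were called: in KO/mock against WT/mock Gata4, a primitive endoderm gene, fell by 0.51 and Sox1, a neuroectoderm gene, fell by 0.62. In KO/ERRb-wt against KO/mock Sox7, of primitive endoderm, fell by 0.63, and Tubb3, of neuroectoderm, rose by 0.67. In KO/ERRb-wt against WT/mock Gata4 fell by 0.56, Sox1 fell by 0.67, Tubb3 rose by 0.71 and the feeder gene Thy1 rose by 0.35, and Klf4, Nanog and Utf1 were again called lower. The part of any of these lists in the results was not tested.

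The comparison of KO/mock with WT/mock cells sets clones labelled knockout against clones labelled wild type. An effect of losing ERRb cannot be told apart from other differences between these clones. Perp fell by 35.3%, Polk fell by 26.7% and Btg2 fell by 22.4%, and none of the 8 genes rose. All 8 differences were negative, as were 47.7% over all probe sets, with a median log2 difference of -0.21 against 0.01 over all probe sets. Of all probe sets, 3.87% were called in either direction and 2.28% lower (limma, Benjamini-Hochberg adjusted p under 0.05), against 3 of the 8 genes called lower. Among probe sets with a mean of at least log2 5, which all 8 genes exceed, 4.2% were called lower. In 5 of the 8 genes every KO/mock array lay below every WT/mock array, which held for 5.35% of all probe sets. The genes were chosen with earlier results of these data known, among them the fall and return of Perp. The shares here and in the comparisons below therefore describe the set and do not test it.

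The comparison of KO/ERRb-wt with KO/mock cells sets the group given the ERRb lentivirus against the knockout with a mock treatment. Perp rose by 51.4%, and it was the 1 gene of the 8 called; 3.21% of all probe sets were called in either direction and 0.977% higher. Differences were positive for 7 genes and negative for 1, Polk (47.3% of all probe sets were negative), with a median of 0.07 against 0.01 over all probe sets. In 4 of the 8 genes (Perp, Btg2, Zmat3 and Cdkn1a) every KO/ERRb-wt array lay above every KO/mock array, which held for 6.01% of all probe sets.

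Set against WT/mock, KO/ERRb-wt cells had less Polk and Ccng1 transcript, 2 of the 8 genes called lower and none higher. Here the background was high: 15.6% of all probe sets were called in either direction and 8.75% lower, and 15.8% of those with a mean of at least log2 5 were called lower. The 2 genes were also the ones with every KO/ERRb-wt array below every WT/mock array, which held for 10.9% of all probe sets. Differences were negative for 6 genes, and for 44.3% of all probe sets. The median difference of the 8 genes was -0.10 against 0.03 over all probe sets. These 3 comparisons share arrays in pairs and are not independent of each other. The KO/mock arrays serve both of the comparisons given first, so low KO/mock values lower one difference and raise the other.

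**Figure D1:**
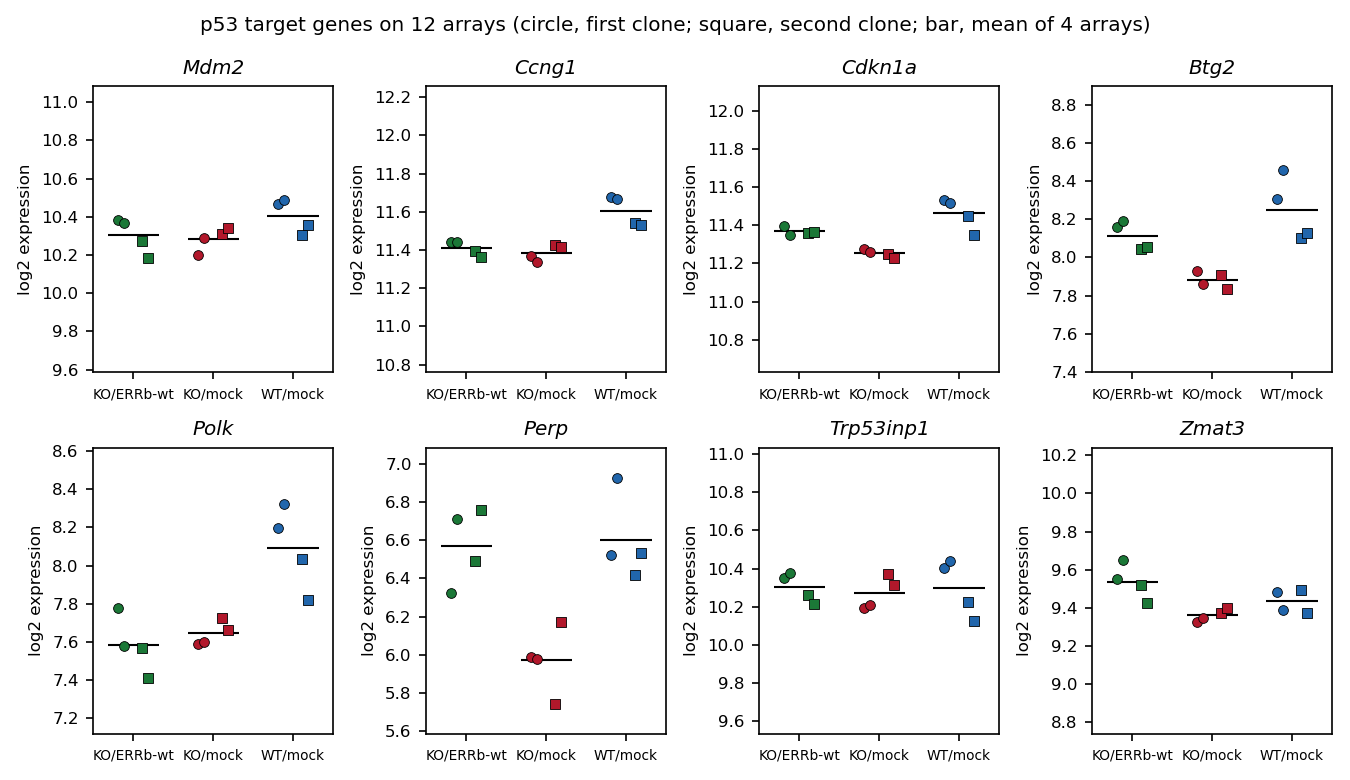
Log2 level of each of the 8 genes on every array, with the groups KO/ERRb-wt, KO/mock and WT/mock from left to right, 4 arrays a group, clones by marker and a bar at each group mean. Perp, Btg2 and Cdkn1a are lowest on the KO/mock arrays, while Polk and Ccng1 are high on the WT/mock arrays alone.

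The feedback genes come first. Mdm2 encodes the ubiquitin ligase that p53 induces and that in turn degrades it. It read 10.38, 10.37, 10.28 and 10.18 on KO/ERRb-wt arrays, 10.20, 10.29, 10.31 and 10.34 on KO/mock arrays, and 10.47, 10.49, 10.31 and 10.36 on WT/mock arrays. The 3 groups overlapped, and both arrays of WT/mock clone 5-2 were the highest of the 12. The KO/mock minus WT/mock difference was -0.12 ± 0.07 (SE; 95% interval -0.27 to 0.03; limma adjusted p = 0.436). KO/ERRb-wt minus KO/mock was 0.02 ± 0.07 (-0.13 to 0.16; adjusted p = 0.922 in limma).

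Ccng1, cyclin G1, is a p53-induced protein that works with protein phosphatase 2A and acts on Mdm2. It read 11.44, 11.44, 11.40 and 11.36 on KO/ERRb-wt arrays, 11.37, 11.34, 11.43 and 11.41 on KO/mock arrays, and 11.68, 11.67, 11.54 and 11.53 on WT/mock arrays. Every WT/mock array was above all 8 knockout-derived arrays, and the other two groups overlapped. KO/mock minus WT/mock was -0.22 ± 0.06 (-0.34 to -0.10), which missed the threshold with a limma adjusted p of 0.0541. KO/ERRb-wt minus KO/mock was 0.02 ± 0.06 (-0.10 to 0.15; limma adjusted p = 0.86). KO/ERRb-wt cells were lower than WT/mock cells by the test, at -0.19 ± 0.06 (limma adjusted p = 0.0362). That call ended without any single KO/ERRb-wt array, or without replicate 1 or 2 of clone 5-2, with adjusted p up to 0.098.

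Among the cell cycle genes, Cdkn1a encodes p21, the cyclin-dependent kinase inhibitor that carries much of p53's G1 arrest. It read 11.40, 11.35, 11.36 and 11.36 on KO/ERRb-wt arrays, 11.28, 11.26, 11.25 and 11.23 on KO/mock arrays, and 11.53, 11.52, 11.45 and 11.35 on WT/mock arrays. The KO/mock arrays were the 4 lowest, and the KO/ERRb-wt arrays overlapped those of WT/mock. The differences were small: -0.21 ± 0.05 for KO/mock minus WT/mock (-0.33 to -0.09; limma adjusted p = 0.0565), then 0.11 ± 0.05 for KO/ERRb-wt minus KO/mock (-0.00 to 0.23; limma adjusted p = 0.284). KO/ERRb-wt minus WT/mock was -0.09 ± 0.05 (limma adjusted p = 0.288). When dim probe sets were left out of the fit, both Ccng1 and Cdkn1a were called lower in KO/mock than in WT/mock cells, with limma adjusted p of 0.0198 and 0.021.

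Btg2 encodes an antiproliferative protein that recruits the CCR4-NOT deadenylase to messenger RNA. It read 8.16, 8.19, 8.04 and 8.05 on KO/ERRb-wt arrays, 7.93, 7.86, 7.91 and 7.84 on KO/mock arrays, and 8.30, 8.46, 8.10 and 8.13 on WT/mock arrays. All 4 KO/mock arrays lay below the other 8. Btg2 fell in KO/mock cells by 0.37 on the log2 scale (SE 0.08; 95% interval -0.54 to -0.19; limma adjusted p = 0.0269). The KO/ERRb-wt minus KO/mock difference, 0.23 ± 0.08 (0.05 to 0.40), was not called (limma adjusted p = 0.151), and KO/ERRb-wt minus WT/mock was -0.14 ± 0.08 (-0.31 to 0.04; limma adjusted p = 0.304). Without clone 5-5 that last difference was -0.27 and was called (limma adjusted p = 0.0398). The fall was lost without any single KO/mock array or either array of clone 5-2 (adjusted p up to 0.086).

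Polk encodes DNA polymerase kappa, which copies past bulky lesions. It read 7.78, 7.58, 7.57 and 7.41 on KO/ERRb-wt arrays, 7.59, 7.60, 7.72 and 7.66 on KO/mock arrays, and 8.20, 8.32, 8.03 and 7.82 on WT/mock arrays. Every WT/mock array lay above all arrays labelled KO/mock or KO/ERRb-wt. Polk fell in KO/mock cells by 0.45 on the log2 scale (SE 0.11; -0.68 to -0.21; limma adjusted p = 0.0399), and KO/ERRb-wt minus KO/mock was -0.06 ± 0.11 (-0.30 to 0.17; limma adjusted p = 0.814). KO/ERRb-wt minus WT/mock was -0.51 ± 0.11 (-0.74 to -0.27; limma adjusted p = 0.00715). The fall in KO/mock was lost without 9 of the 12 single arrays (all 4 KO/mock arrays, both of clone 5-2, replicate 1 of 5-5, replicate 2 of 12-1 and replicate 1 of 12-3; adjusted p up to 0.121), whereas the KO/ERRb-wt against WT/mock call held without each of the 12 arrays (up to 0.0254) and was lost without clone 12-3 (0.0751) or 5-2 (0.0804).

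Perp encodes a membrane protein of the PMP22 family that p53 and its relative p63 induce, known in mouse for apoptosis and for desmosomes of stratified epithelia. It read 6.32, 6.71, 6.49 and 6.76 on KO/ERRb-wt arrays, 5.99, 5.98, 5.74 and 6.17 on KO/mock arrays, and 6.52, 6.93, 6.42 and 6.53 on WT/mock arrays. The 4 KO/mock arrays were the lowest, and the KO/ERRb-wt arrays spanned nearly the range of WT/mock. Perp fell in KO/mock cells by 0.63 on the log2 scale (SE 0.14; 95% interval -0.92 to -0.33; limma adjusted p = 0.0244). It rose in KO/ERRb-wt cells by 0.60 ± 0.14 over KO/mock (0.30 to 0.89; limma adjusted p = 0.0377). KO/ERRb-wt minus WT/mock was -0.03 ± 0.14 (-0.33 to 0.27; limma adjusted p = 0.918), an interval that spans differences of either sign.

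The Perp calls rest on few arrays. The fall was lost without replicate 1 of clone 8-3, replicate 1 of 8-4, or replicate 1 or 2 of 5-2 (limma adjusted p up to 0.07). The rise was lost without 7 of the 12 arrays: replicate 2 of 12-1, either of 12-3, either of 8-3, replicate 1 of 8-4 and replicate 1 of 5-2 (up to 0.0979). Its size stayed between 0.52 and 0.68 over the 12. With a whole clone left out, the fall was lost without 5-2, 8-3 or 8-4 (up to 0.162) and the rise without any of the clones of KO/ERRb-wt or KO/mock (up to 0.175). The falls of Btg2 and Polk were lost without 5-2, 8-3 or 8-4 as well (up to 0.189 and 0.315), and the Ccng1 call without 12-1, 12-3, 5-2 or 8-3 (up to 0.273).

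Trp53inp1 encodes a stress-induced nuclear protein that promotes p53 phosphorylation and autophagy. It read 10.35, 10.38, 10.26 and 10.22 on KO/ERRb-wt arrays, 10.19, 10.21, 10.37 and 10.32 on KO/mock arrays, and 10.40, 10.44, 10.23 and 10.13 on WT/mock arrays. The groups overlapped throughout, and KO/mock minus WT/mock was -0.03 ± 0.08 (-0.20 to 0.15; limma adjusted p = 0.927).

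Zmat3 encodes an RNA-binding zinc finger protein that acts in splicing. It read 9.55, 9.65, 9.52 and 9.43 on KO/ERRb-wt arrays, 9.33, 9.35, 9.38 and 9.40 on KO/mock arrays, and 9.48, 9.39, 9.49 and 9.37 on WT/mock arrays. All KO/ERRb-wt arrays lay above all KO/mock arrays, but the difference of 0.17 ± 0.06 (0.04 to 0.31) was not called (limma adjusted p = 0.147). KO/mock minus WT/mock was -0.07 ± 0.06 (limma adjusted p = 0.656).

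**Figure D2:**
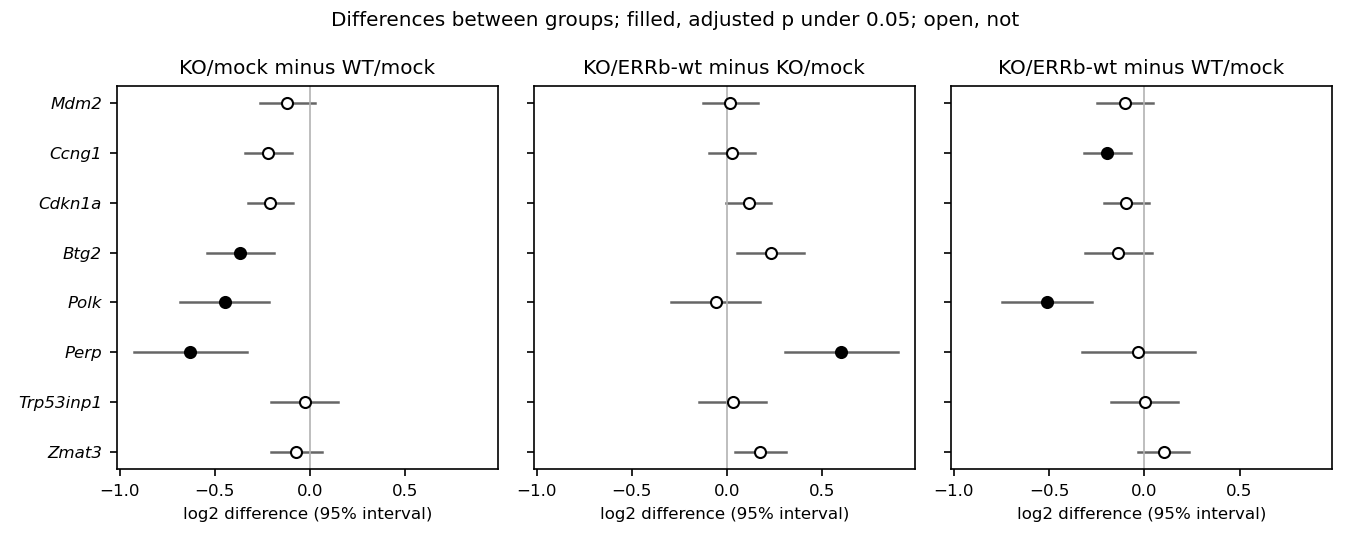
Log2 differences with 95% intervals for the 8 genes, for KO/mock minus WT/mock, KO/ERRb-wt minus KO/mock and KO/ERRb-wt minus WT/mock. Filled points passed the adjusted threshold: Btg2, Polk and Perp in the first panel, Perp in the second, Ccng1 and Polk in the third.

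An exact two-sided permutation test over the 70 splits of each pair of groups gave its smallest possible p, 0.0286, for each difference with no overlap between groups. This p was reached by 11 of the 24 values tested, and adjusted over the 24 it is 0.0624, so none passed by this test. The test takes single arrays as exchangeable and ignores that arrays share clones, so its p does not measure the spread between clones. By order of group means, 5 genes (Mdm2, Ccng1, Cdkn1a, Btg2 and Perp) had KO/ERRb-wt between KO/mock, the lowest, and WT/mock, Polk had KO/ERRb-wt lowest and KO/mock next, and Trp53inp1 and Zmat3 were highest on KO/ERRb-wt. Neighbours in these orders often overlapped, as the values above show.

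**Figure D3:**
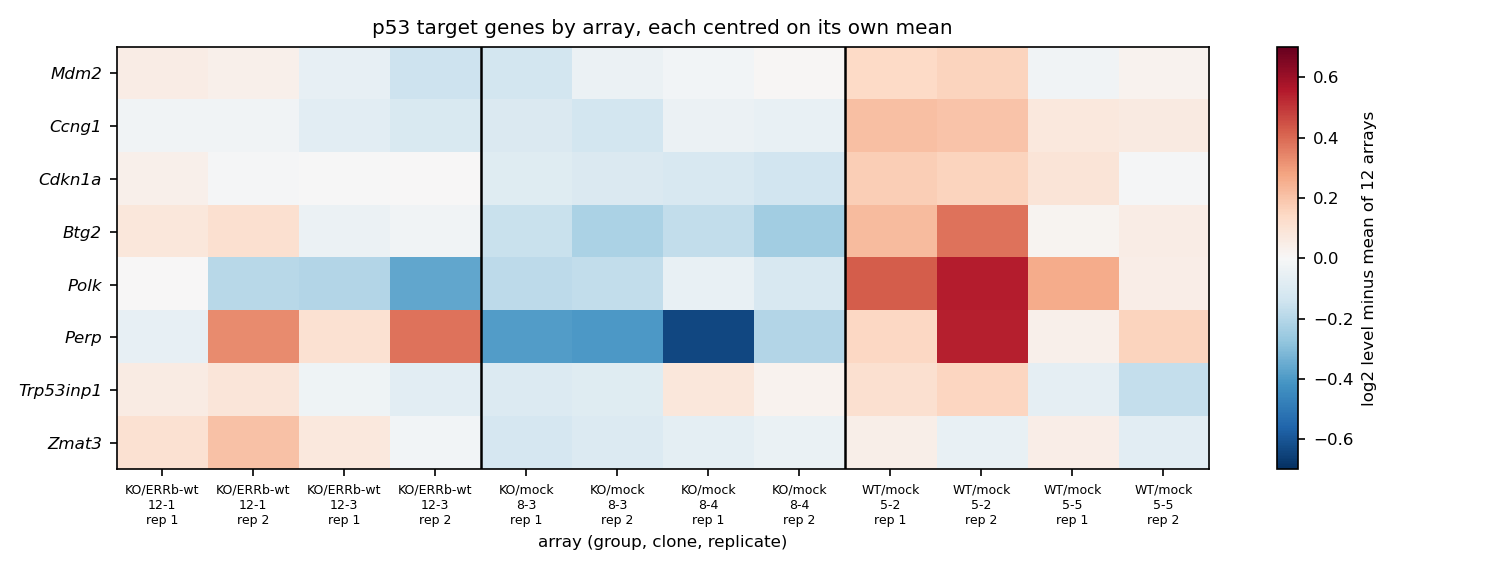
Each of the 8 genes on each of the 12 arrays as the log2 level minus the mean of the gene over the 12 arrays, with arrays labelled by group, clone and replicate. The KO/mock block is mostly below the mean, and the WT/mock arrays of clone 5-2 stand above those of 5-5 in 6 of the 8 genes.

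Within a group, the 2 clones tended to be ordered alike over the p53 genes, which are not independent of each other on one array. Among WT/mock arrays, both arrays of clone 5-2 lay above both of 5-5 for 6 of the 8 genes (Mdm2, Ccng1, Cdkn1a, Btg2, Polk and Trp53inp1) and below for 0, while 16.6% of all probe sets lay above and 19.8% below. On KO/ERRb-wt arrays, clone 12-1 lay above 12-3 for 6 of the 8 (Mdm2, Ccng1, Btg2, Polk, Trp53inp1 and Zmat3) and below for 0, against 19.9% and 18.1% of probe sets. On KO/mock arrays, clone 8-3 lay below 8-4 for 5 of the 8 and above for 1, against 18.7% and 19%. Limma called none of the 8 genes between clones of a group, against 0.0169% of probe sets for KO/ERRb-wt, 0.00484% for KO/mock and 0% for WT/mock clones. At an unadjusted p under 0.05 stood 3 of the 8 genes and 7.53% of probe sets between the WT/mock clones, among them Polk at -0.33 ± 0.11 for 5-5 minus 5-2 (limma adjusted p = 0.561) and Btg2 at -0.27 ± 0.08 (limma adjusted p = 0.52).

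With the 2 arrays of each clone averaged, so that 2 clones stood against 2, none of the 8 genes was called in any comparison. Unadjusted p was under 0.05 for 5 genes in KO/mock against WT/mock and for 1 in each of the other 2 comparisons. The share of all probe sets at this unadjusted threshold is not given, so these counts have no background beside them. By adjusted p, limma called 10, 0 and 2251 probe sets in the 3 comparisons. Since every clone had 2 arrays, averaging leaves the differences themselves unchanged, so their directions could not differ and are no check.

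Other genes of the pathway were read from fixed lists. Their counts stand beside the share of all probe sets called in either direction. That share was 3.87% in KO/mock against WT/mock, 3.21% in KO/ERRb-wt against KO/mock and 15.6% in KO/ERRb-wt against WT/mock. The counts describe the lists and do not test them. Of 27 other p53-induced genes, 0 rose and 2 fell in KO/mock against WT/mock, Tnfrsf10b, a death receptor gene, and Dcxr, a carbonyl reductase gene named after its value was seen. Their list's median was -0.02 against 0.01 over all probe sets. Tnfrsf10b fell by 0.65 ± 0.08 on the log2 scale (limma adjusted p = 0.00109) and by 0.58 ± 0.08 in KO/ERRb-wt against WT/mock cells (limma adjusted p = 0.000619). It lies on chromosome 14, where the median KO/mock minus WT/mock difference over 343 genes with means of at least log2 6 was -0.41, against 0.03 for 9407 genes elsewhere. The part of this shift in the Tnfrsf10b difference was not tested. None of the 8 genes lies on chromosome 14. Dcxr fell by 0.55 ± 0.14 in KO/mock against WT/mock (limma adjusted p = 0.0466), a call lost without 10 of the 12 single arrays.

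In KO/ERRb-wt against KO/mock, 2 of the 27 rose: Plk2, a polo-like kinase gene, at 0.58 ± 0.14 (limma adjusted p = 0.0482), and Phlda3, an inhibitor of AKT at membranes that was named after its value was seen, at 0.36 ± 0.08 (limma adjusted p = 0.0329). Both calls were lost without single arrays, 9 of 12 for Plk2 and 7 of 12 for Phlda3. None fell, and the list's median was 0.07. Against WT/mock, 5 of the 27 rose and 6 fell in KO/ERRb-wt. Of all probe sets, 15.6% were called there in either direction and 8.75% lower. Plk2 rose by 0.82 ± 0.14 and Rrm2b, a ribonucleotide reductase subunit gene, fell by 0.50 ± 0.09 (limma adjusted p = 0.0021 and 0.00304).

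Among 23 regulators and partners of p53, 1 rose and 1 fell in KO/mock against WT/mock. Trp53bp1, a DNA damage adaptor gene, was 0.30 ± 0.07 higher and Ppp1r13b, whose protein stimulates p53 binding to apoptotic targets, fell by 0.45 ± 0.08 (limma adjusted p = 0.0309 and 0.0105). In KO/ERRb-wt against KO/mock Trp53bp1 was again higher, by 0.33 ± 0.07 (limma adjusted p = 0.0239), and Trp53inp2 fell by 0.42 ± 0.09 (limma adjusted p = 0.0254). The Trp53bp1 calls were lost without 5 of the 12 single arrays against WT/mock and without 4 against KO/mock, and that of Trp53inp2 without 5.

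Of 16 relatives and desmosome partners of Perp, 0 rose and 1 fell in KO/mock against WT/mock, and 0 rose and 4 fell in KO/ERRb-wt against KO/mock, in which Perp rose. Dsg2, desmoglein 2, a cadherin of desmosomes, averaged 7.58 ± 0.15 on KO/ERRb-wt, 8.03 ± 0.09 on KO/mock and 8.53 ± 0.05 on WT/mock arrays (SD, n = 4 each). It fell by 0.50 ± 0.08 in KO/mock against WT/mock and by 0.45 ± 0.08 in KO/ERRb-wt against KO/mock (limma adjusted p = 0.0037 and 0.012), and both calls held without every single array. Dsp, desmoplakin, which ties desmosomes to keratin filaments, fell by 0.70 ± 0.14 in KO/ERRb-wt against KO/mock (limma adjusted p = 0.0239), Pkp2 by 0.36 ± 0.07 (0.0274) and Jup, plakoglobin, named after its value was seen, by 0.26 ± 0.06 (0.0402). Each of these 3 calls was lost without some single arrays, 5 of 12 for Dsp, 5 for Pkp2 and 9 for Jup. Emp2, of the PMP22 family like Perp, was called in KO/ERRb-wt against WT/mock alone. There 0 of the 16 rose and 4 fell, and 8.75% of all probe sets were called lower. The Emp2 difference there was -0.998 ± 0.141 (limma adjusted p = 0.000625). Emp2 averaged 5.82 on KO/ERRb-wt, 6.31 on KO/mock and 6.81 on WT/mock arrays.

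In the translesion polymerase group of Polk, 7 genes measured, Poli fell in both steps, by 0.35 ± 0.09 in KO/mock against WT/mock and by 0.38 ± 0.09 in KO/ERRb-wt against KO/mock (limma adjusted p = 0.0473 and 0.0375). Each of these calls was lost without 8 of the 12 single arrays. Mad2l2 fell in KO/ERRb-wt against KO/mock by 0.41 ± 0.10 (limma adjusted p = 0.0455), also a call lost without 8 of the 12. In KO/ERRb-wt against WT/mock, 3 of the 7 fell and 1, Rev1, rose by 0.24 ± 0.07 (limma adjusted p = 0.0424), a call lost without 9 of the 12 arrays. Of all probe sets, 15.6% were called there in either direction and 8.75% lower. The falls held without each single array and clone for Poli, Polh and Mad2l2, at -0.73 ± 0.09, -0.37 ± 0.06 and -0.55 ± 0.10 (limma adjusted p = 0.000202, 0.0013 and 0.00259). With clone averages the Polh call was lost (limma adjusted p = 0.058).

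Of 15 BCL2 family genes, the group of Bax, 1 rose and 1 fell in KO/mock against WT/mock: Bcl2l11, the pro-apoptotic Bim, at 0.50 ± 0.06, and Bcl2, the anti-apoptotic founder, which fell by 0.44 ± 0.09 (limma adjusted p = 0.000944 and 0.0201). Bcl2l11 held without each array and clone, and the Bcl2 call was lost without 2 of the 12 arrays. Neither was called in KO/ERRb-wt against KO/mock (-0.03 and 0.07). Of 6 cyclin-dependent kinase inhibitor genes other than Cdkn1a, none was called in KO/mock against WT/mock or KO/ERRb-wt against KO/mock, and Cdkn2c and Cdkn1b were lower in KO/ERRb-wt than in WT/mock cells. Of 4 BTG/TOB family genes other than Btg2, Tob1, another antiproliferative gene, fell by 0.40 ± 0.08 in KO/ERRb-wt against KO/mock (limma adjusted p = 0.0254), a call lost without 5 of the 12 single arrays, and none was called in KO/mock against WT/mock. Of 16 cell cycle genes that p53 is known to repress through p21, 1 fell in each of those first comparisons, Ccnb2 (-0.32 ± 0.07) and Cdc25c (-0.27 ± 0.07), and none rose. These calls were lost without 5 of the 12 single arrays for Ccnb2 and 10 for Cdc25c. With whole clones left out in turn, the list genes called in KO/mock against WT/mock without every one of the 6 clones were Tnfrsf10b and Bcl2l11, and for KO/ERRb-wt against KO/mock there was none. With clone averages both of these calls were lost too (limma adjusted p = 0.1 and 0.106), as were those of Dsg2 in KO/mock against WT/mock (0.134) and in KO/ERRb-wt against KO/mock (0.182), and no other list gene named here was called with clone averages in either comparison.

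**Figure D4:**
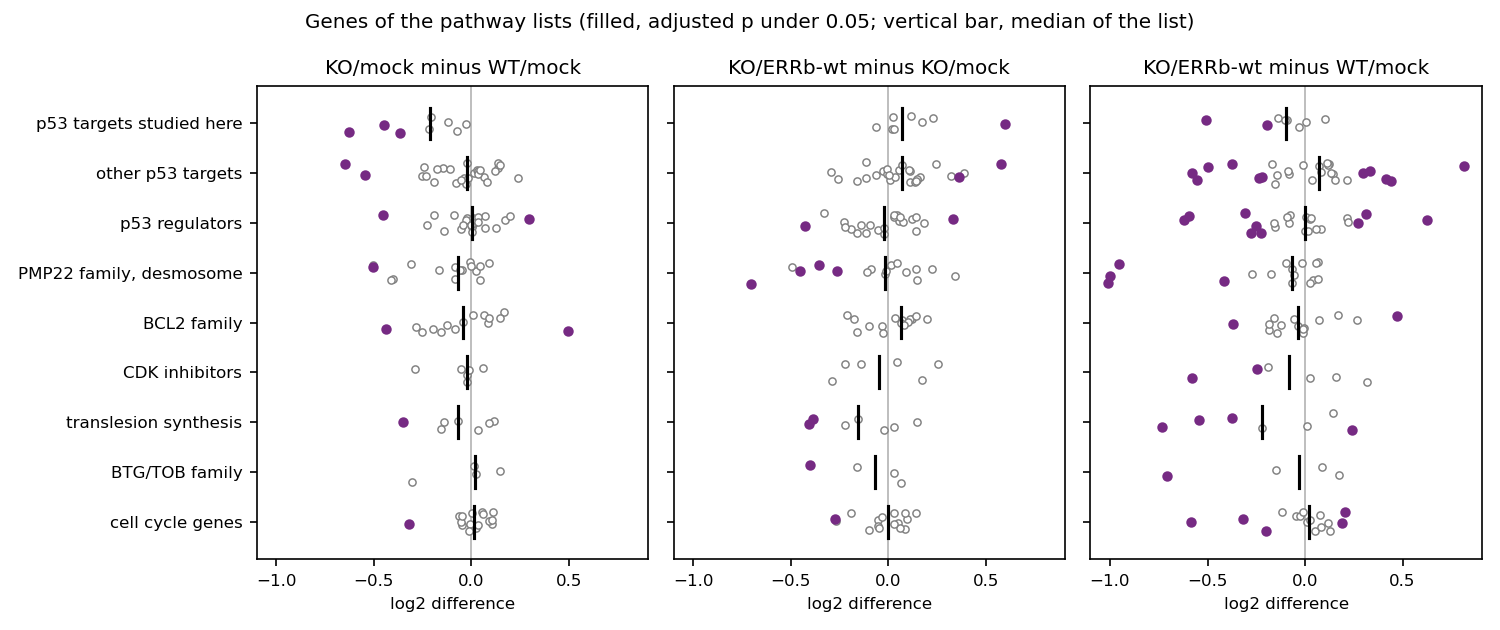
Log2 differences of every measured gene in the p53 genes and in the fixed pathway lists, for the 3 comparisons, with the median of each list marked. The 8 p53 genes are all below 0 in KO/mock minus WT/mock, while the lists around them are centred near 0. Genes and lists were chosen with earlier results of these data known, so this contrast is a description with no test.

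By root mean square distance between log2 profiles over the 12 arrays, each centred on its mean, the genes nearest to Perp among 17331 ranked were Steap3 (0.148), Serping1 (0.16), Lgals1 (0.172), Trim30a (0.177) and Mfsd1 (0.184), against a spread of 0.338 for Perp itself. Steap3 averaged 5.75 on KO/ERRb-wt, 5.29 on KO/mock and 5.84 on WT/mock arrays, and Lgals1 10.43, 9.97 and 10.38. Both were chosen for this likeness, so it is a description with no test.

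**Figure D5:**
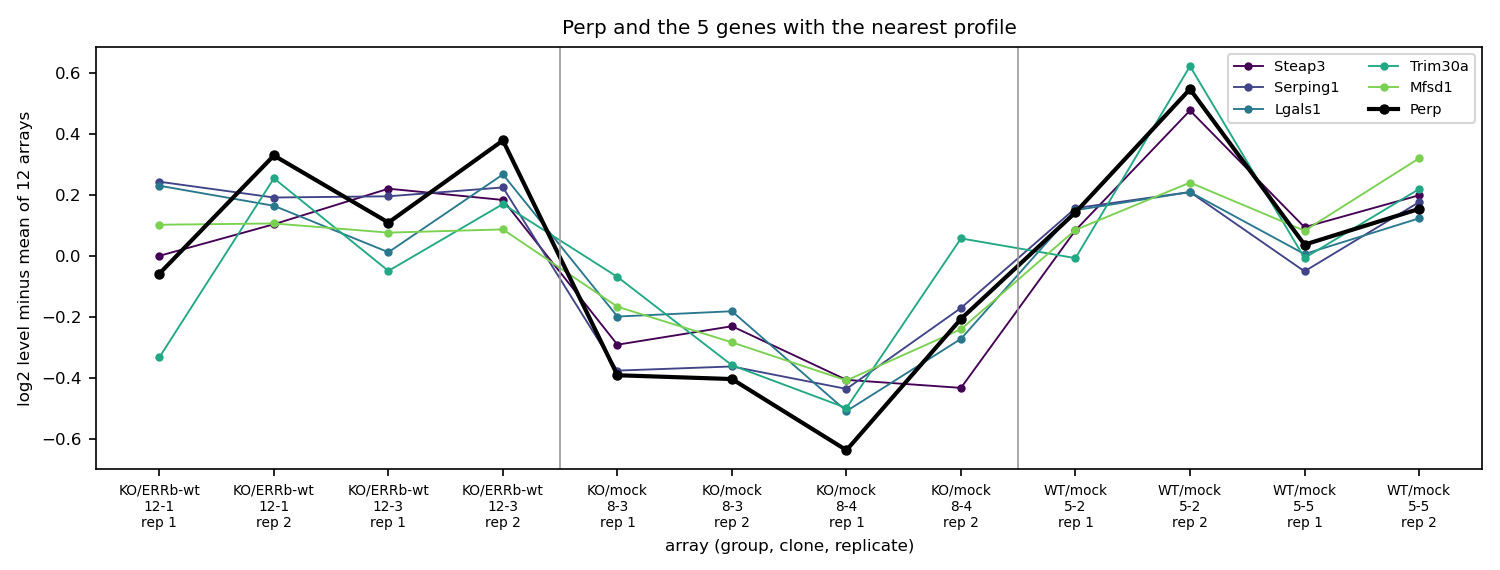
Centred log2 profiles of Perp (black) and the 5 genes nearest to it, over the 12 arrays in the order KO/ERRb-wt, KO/mock, WT/mock. Perp, Steap3, Serping1, Lgals1 and Mfsd1 lie below their means on all 4 KO/mock arrays, and Perp is lowest on replicate 1 of clone 8-4. Trim30a lies above its mean on replicate 2 of clone 8-4 and is low on a KO/ERRb-wt array, replicate 1 of clone 12-1.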

How the data were processed

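The deposited table holds log2 expression values of 12 Affymetrix MoGene 2.0 ST arrays, which the authors computed by RMA. Per the submitters' processing notes the program was Affymetrix Expression Console, with no version stated. RMA forces the probe intensities of all arrays to one distribution before summarizing them, and hides a shift common to most genes. The summarized values still differed between arrays, with medians from 5.00 to 5.07. Genes were named from the platform annotation, which lists exactly 1 symbol for 23521 of 41345 probe sets, several for 1814 and none for 16010. One linear model of 3 groups was fitted (limma 3.58.1, R 4.3.3, statmod 1.5.0). Clone entered as a random block (correlation 0.0286), and p-values were two-sided and adjusted by Benjamini-Hochberg over all probe sets, calling an adjusted p under 0.05. No filter on dim probe sets was applied in the reported values. Alternatives were no clone block, clone averages, a replicate block, 2 groups alone, other centring or quantile normalization, dim probe sets left out and arrays or clones left out. The fit was tested on simulated data, in which arrays varied independently and clones did not differ. For KO/mock against WT/mock, 9% of simulated log2 changes of 0.25 were called, 56% of those of 0.5 and 84% of those of 1. For KO/ERRb-wt against KO/mock the shares were 6%, 49% and 86%. A gene that was not called may therefore still differ by such small amounts. The genes, the lists and the named genes (all 10 genes, up to 4 called per list by smallest adjusted p, and the 5 nearest to Perp, with Dcxr, Phlda3, Jup and the called cell type markers outside this rule) were chosen with earlier results of these data known. Aen, Kat5, Bub1 and Mcm2, called in KO/ERRb-wt against WT/mock, also met this rule but are not described above. The labels call arrays of a clone biological replicates; p-values measure the spread between these arrays. Correlations of deviations from group means, between arrays of different groups, ran from -0.0686 to 0.194 (median 0.0299) for the same replicate number. For other replicate numbers they ran from -0.146 to 0.0858 (median -0.0256). Whether arrays with the same number were handled together was not tested.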

Additional observations from a re-analysis of the deposited data

How the results depend on the processing

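For KO/mock against WT/mock, 3 of the 8 genes and 1602 probe sets were called. The number of genes was 0 with clone averages (10 probe sets), 5 with dim probe sets left out, 1 with only the 2 groups fitted, 0 without clone 5-2 (531 probe sets), 8-3 or 8-4 (560 probe sets), 5 without 5-5, and 0 to 5 (888 to 1841 probe sets) with single arrays left out. For KO/ERRb-wt against KO/mock, 1 gene and 1329 probe sets were called. There were 0 genes with clone averages (0 probe sets), with only the 2 groups fitted (777 probe sets) and without 12-1 (761), 12-3 (333), 8-3 (145) or 8-4, and 0 to 1 (544 to 1399 probe sets) with single arrays left out. For KO/ERRb-wt against WT/mock, 2 genes and 6460 probe sets were called. There were 0 genes with clone averages (2251 probe sets), 1 with only the 2 groups fitted, 1 without 12-1 or 8-3, 3 without 5-5, 0 without 12-3 (3931 probe sets) or 5-2 (3245), and 1 to 2 (4822 to 6526 probe sets) with single arrays left out. With fewer arrays or clones the fit has fewer samples; other causes were not tested. Where no gene was called with clone averages, unadjusted p was under 0.05 for 5 genes in KO/mock against WT/mock and 1 in each other comparison. No share of all probe sets at that unadjusted threshold stands beside these counts.

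With the replicate number as a block and the clone block kept, the members called were 2, 1 and 1 in the 3 comparisons: Polk in KO/mock against WT/mock and Ccng1 in KO/ERRb-wt against WT/mock were not called (limma adjusted p = 0.052 and 0.051). The lowest limma adjusted p among the 8 genes was then 0.0067, 0.0153 and 0.00998, against 0.0244, 0.0377 and 0.00715 in the main fit. Differences that changed sign were all near 0 and uncalled. For KO/ERRb-wt minus KO/mock these were Ccng1 at -0.00317 (median centring), -0.0076 (without 12-1) and -0.00902 (without 8-3), Mdm2 at -0.0107, -0.0555 and -0.0227 under the same settings and -0.0108 to 0.056 with single arrays left out, Polk at 0.0025 (quantile normalization) and 0.0331 (without 12-3), and Trp53inp1 at -0.0332 (without 12-1) and -0.0416 (without 8-3). For KO/ERRb-wt minus WT/mock they were Perp at 0.0198 (quantile normalization), 0.0238 (without 12-1), 0.0942 (without 5-2) and -0.0934 to 0.0781 with single arrays left out, and Trp53inp1 at -0.0354 (median centring), -0.0603 (without 12-1), -0.121 (without 5-5) and -0.0557 to 0.048. For KO/mock minus WT/mock it was Trp53inp1 at 0.0963 (without 5-2), 0.0439 (without 8-3) and -0.085 to 0.0186. Averaging all probe sets of a gene gave no other value, since each gene had 1. No background level accompanies the array values, so how far dim probe sets stand above background is unknown.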
